A study of Bos taurus with 10 samples.

Results

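Fragments of predicted tRNA-like loci were examined in bull sperm, for every locus whose name carries the prefix tRX and an isotype label other than Cys, Gly, Glu or Val. The members were all rows of the tsRNA table (tRNA-derived small RNAs) with such a name and a sense-strand ending, which gave 41796 of the table's 184397 rows. These rows came from 10449 loci with 19 isotype labels, and each locus had 4 rows: fragments at the 5′ end, at the 3′ end, at neither end, and reads over the whole locus. Of the members, 10248 rows at 8064 loci had a value above 0 in some group, 1116 had a mean over the groups of at least 10 normalized counts, 369 of at least 100, and 81 of at least 1000. All 41796 member rows carry NNN in place of an anticodon, so the isotype label rests on the annotation used by the authors and is not backed by a named anticodon. None of the 10449 locus names matched the RefSeq gene table used here, so no sequence is shown.

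Transfer RNAs bring amino acids to the ribosome, and their cleavage yields small RNAs from the 5′ or the 3′ side that are abundant in mammalian sperm. In the usual naming of predicted tRNA genes, tRX marks predictions outside the confident set, many of which are degenerate copies. Cattle genomes hold large families of short interspersed repeats that descend from tRNA genes. The label Und stands for a locus whose amino acid could not be assigned, and Sup for one whose anticodon would read a stop codon.

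The samples were sperm of the species Bos taurus, and small RNA libraries were made from their RNA with no further treatment. There were 4 groups of 3 libraries: high bull fertility, low bull fertility, high associated daughter fertility and low associated daughter fertility. They came from 10 samples, because 2 of the high bull fertility samples also carried a daughter fertility label, 1 of them low and 1 of them high. The 2 comparisons therefore share libraries and are not independent. The labels give no age or breed and do not say that samples were separate bulls, so the p-values measure only the spread between these samples. In bulk sperm RNA, fewer cells with a fragment and less of it per cell cannot be told apart.

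The authors' deposited table gives 1 value per group, a log2 fold change of high over low and an unadjusted p, so no SD over libraries can be given for a group value. Every positive member value was a whole number of reads in 1 library of its group, as a median of 3 libraries would be. The libraries differed in depth: 1 normalized count stood for 0.618 to 1.39 reads in high bull, 0.945 to 1.89 in low bull, 0.618 to 0.785 in high daughter and 0.903 to 2.21 in low daughter fertility libraries. Each of the 3 high daughter fertility libraries was thus shallower than each low daughter fertility library. More member rows were above 0 in the deeper groups, with 5557 in high bull, 6374 in low bull, 4967 in high daughter and 8232 in low daughter fertility. Because of the shared libraries, 1191 of the 4899 member rows above 0 in both the high bull and low daughter groups had exactly equal values there (24.3%), and so had 530 of 4079 between the high bull and high daughter groups (13.0%). In the miRNA tables, 4 miRNAs taken as male germ cell markers had summed means of 10207 normalized counts over the bull fertility samples and 12021 over the daughter fertility samples. Most of this was miR-375, with 6860 and 7694. The means of miR-34b, miR-34c and miR-449a were from 692 to 1914 and from 939 to 2442. The sums for 6 leukocyte miRNAs were 444 and 567, for 6 epithelial miRNAs 356 and 412, and for 3 red blood cell miRNAs 265 and 309, and no marker was at 0. These are means over both groups of a comparison, so whether other cells moved with fertility was not tested.

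The member loci gave a minority of the summed tRNA and tRX values, most of it from the 5′ end. The summed member values were 338209 normalized counts in high bull, 323775 in low bull, 303997 in high daughter and 401612 in low daughter fertility. That was 19.2%, 15.3%, 15.1% and 17.0% of the same sum over all tRNA and tRX rows with these endings. The Cys, Gly, Glu and Val tRX rows held a further 22.8%, 18.2%, 18.7% and 19.7%. Rows with nearly the same values, described below, are each counted in these sums. Fragments at the 5′ end held 88.8%, 87.6%, 88.4% and 90.2% of the member sum in the same order. Fragments at neither end held 8.60%, 8.86%, 8.79% and 7.36%, and those at the 3′ end 2.58%, 3.55%, 2.84% and 2.43%. Rows with the tRNA prefix were split much the same way, with 88.7% to 90.1% at the 5′ end. None of the 10449 whole-locus rows had a group value above 0, although 3 had a fold change, so some library held reads there. By contrast, 21 of 367 whole-length rows with the tRNA prefix were above 0.

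Most loci showed fragments of only 1 kind. Of the 8064 loci with a value, 3833 had fragments at neither end only, 1216 at the 5′ end only and 983 at the 3′ end only. Fragments from both the 5′ and the 3′ side of the same locus were seen at 250 loci. Among the 363 loci where some ending had a mean of at least 100, only 6 had a second ending that high. At tRX-Arg-NNN-117 the mean was 1634 for 3′ fragments and 443 for those at neither end, with 0 at the 5′ end. Of the other 5 loci, 4 carried the Lys label and 1 the Asp label, tRX-Asp-NNN-2, with 251 at the 3′ end, 118 at neither end and 28.7 at the 5′ end.

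The isotype labels held very unequal shares. Und loci gave 23.5% of the summed mean, Sup loci 22.0% and Asp loci 13.1%, followed by Trp with 7.92%, Ala with 7.01%, Arg with 5.96%, Lys with 5.79% and Ser with 4.93%. The remaining 11 labels each gave 2.51% or less, down to 0.113% for Asn. These shares did not follow the number of loci: Asp had 352 loci, fewer than Tyr, whose 954 loci gave 1.014%. The 5′ end held most of the signal in 13 labels, and fragments at neither end did so in 5, His, Ile, Tyr, Gln and Phe, with 74.9%, 73.8%, 64.6%, 61.9% and 61.1%. In Asn loci the 5′ end held 45.9% and neither end 45.6%.

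**Figure D1:**
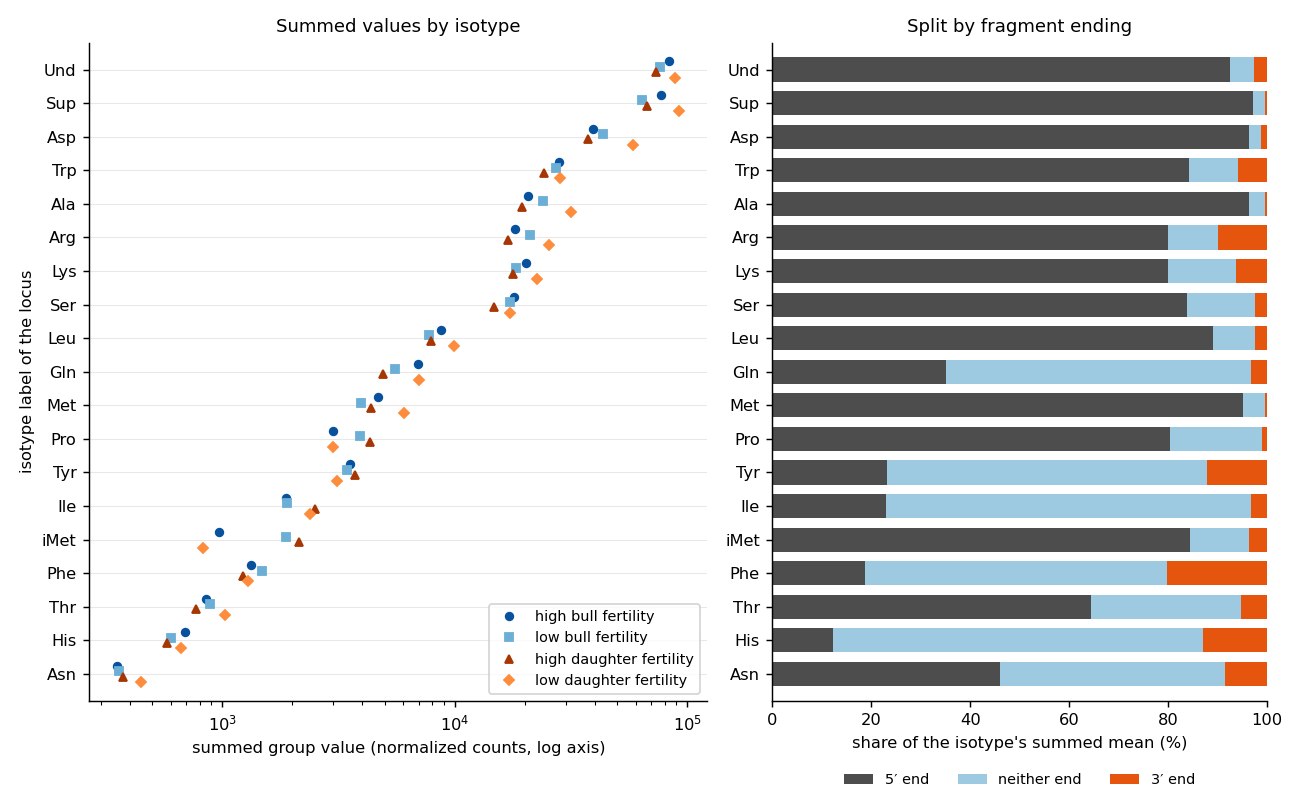
Left, the summed group value of the member rows of each isotype label, in normalized counts on a log axis, with a point for each of the 4 fertility groups. Right, the share of each label's summed mean that lay in 5′ fragments, fragments at neither end and 3′ fragments. Und and Sup loci lead the sums in each group, iMet is the label whose groups lie farthest apart, and His, Ile, Tyr, Gln and Phe are mostly fragments at neither end.

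A few rows carried most of the signal. The 10 most abundant rows held 26.4% of the summed mean, the 81 rows with a mean of at least 1000 held 77.5%, and the 369 rows of at least 100 held 90.2%. Of those 81 rows, 78 were 5′ fragments. Many had almost the same 4 group values as a row outside the members. Within a tolerance of 5% in all 4 groups, 75 of the 81 rows (92.6%) lay next to a tRNA row or a Cys, Gly, Glu or Val tRX row of the same ending. The nearest such row was labelled Glu for 46 of them, Gly for 21 and another isotype for 8. For 36 of the 75 no tRNA row was that near. Their nearest label could only be Cys, Gly, Glu or Val, because no other tRX rows were compared. At a tolerance of 1%, 37 of the 81 rows lay next to a tRNA row or such a tRX row. A tRNA row lay within 5% of 39 of the 81 rows, and for 6 of these 39 it carried the member's own isotype.

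Member rows also resembled each other across labels. Grouped at the same 5% tolerance, the 369 rows formed 173 groups, and 49 of these groups, with 235 rows, joined more than 1 isotype label. The group with the most signal had 23 rows of 5′ fragments under 8 labels (Asp, Leu, Lys, Met, Ser, Sup, Trp and Und) and held 29.8% of the members' summed mean. Its rows ran from 4318 to 4424 normalized counts in high bull, 3554 to 3694 in low bull, 3962 to 4088 in high daughter and 5674 to 5814 in low daughter fertility. The row tRX-Glu-NNN-8099 differed from its leading row, tRX-Asp-NNN-11, by at most 0.906%. A group of 21 rows under 6 labels, led by tRX-Und-NNN-3378, had median values of 1784, 1557, 1272 and 1569 in the order high bull, low bull, high daughter and low daughter. The leading row itself lay within 1.24% of tRX-Gly-NNN-1610 and 2.29% of tRNA-Gln-TTG-6. Nothing in the sources used here says how reads matching several loci were counted, so the values of such rows are uncertain by locus and by label. Counting each group once left 43.8% to 47.8% of the summed values.

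**Figure D2:**
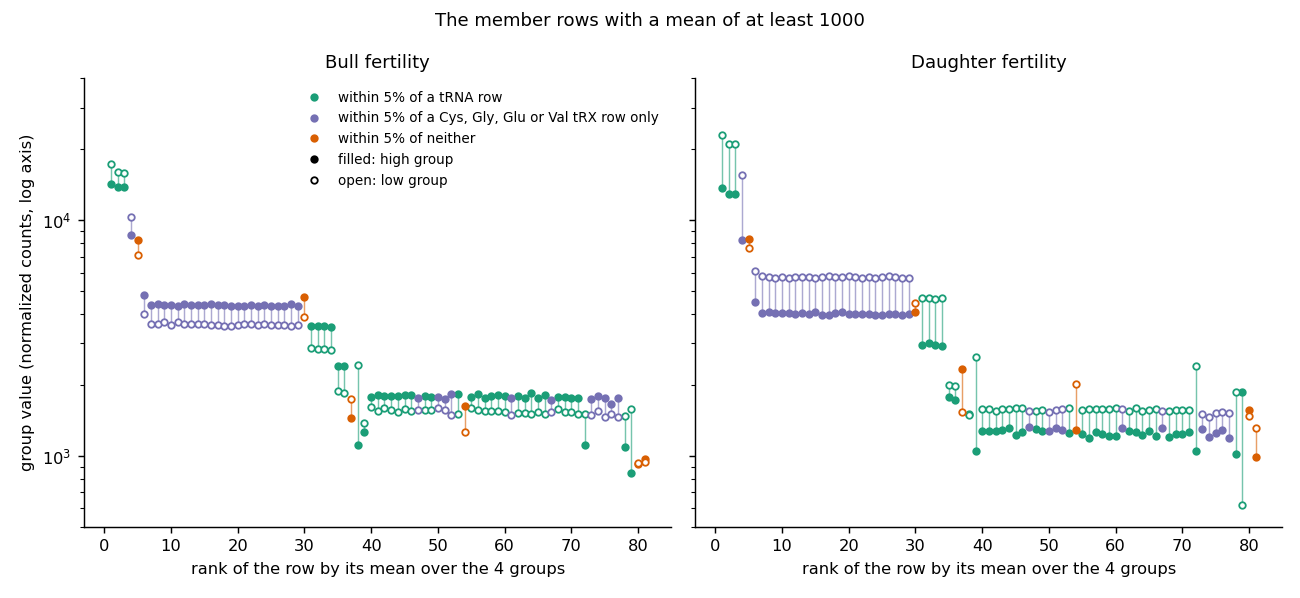
Group values, in normalized counts on a log axis, of the 81 member rows with a mean of at least 1000, in order of their mean. Filled points are the high and open points the low fertility group, and colour shows whether a row lies within 5% of a tRNA row, only of a Cys, Gly, Glu or Val tRX row, or of neither. Runs of rows at the same height are the near-equal groups, and 6 rows lie near neither.

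Loci labelled Und or Sup, for no assigned amino acid or a stop-reading anticodon, held the largest shares of the signal. The 2095 Und loci summed to 83343 normalized counts in high bull, 76465 in low bull, 73145 in high daughter and 88858 in low daughter fertility. Their leading row was the 5′ fragment of tRX-Und-NNN-2564, with 8284, 7103, 8349 and 7648 in the same order. This row stood apart: its nearest tRNA row, tRNA-Glu-TTC-6, differed from it by 33.1%. The 990 Sup loci summed to 77122, 64296, 67447 and 92488. Their leading row, the 5′ fragment of tRX-Sup-NNN-688, belonged to the near-equal group of 23 rows and held just 5.93% of the Sup signal. A second Sup row, tRX-Sup-NNN-553 at the 5′ end, had 4717, 3883, 4088 and 4466 and lay within 5.70% of tRX-Glu-NNN-5008. In both labels the low daughter fertility sum was the highest of the 4. The few tRNA rows of these labels had little signal, from 12.3 to 19.3 for Und and from 85.1 to 156 for Sup.

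Among labels for acidic amino acids and their amides, Asp (aspartate) held the 2 most abundant of all member rows. The 5′ fragment of tRX-Asp-NNN-23 had 14278 normalized counts in high bull, 17407 in low bull, 13767 in high daughter and 23101 in low daughter fertility. It lay within 0.315% of the 5′ fragment of tRNA-Gly-CCC-35, while the nearest tRNA row labelled Asp differed 1410%. The 5′ fragment of tRX-Asp-NNN-36 had 13868, 15959, 12967 and 20985, within 0.185% of tRNA-Gly-CCC-8. With both rows, the Asp loci summed to 39216, 43381, 37313 and 58702, and their mean over the groups was 508% of that of tRNA rows labelled Asp. For Gln (glutamine) the leading row was at neither end: tRX-Gln-NNN-67 had 1622, 1257, 1288 and 2012, and its nearest tRNA row differed by 18.2%. Asn (asparagine) loci were the least abundant label, with sums from 354 to 450. Their leading row, the 5′ fragment of tRX-Asn-NNN-120, had 96.7, 120, 108 and 96.7.

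Among the basic amino acids, Arg (arginine) depended on 1 row. The 5′ fragment of tRX-Arg-NNN-8 had 8683, 10369, 8262 and 15614 normalized counts and held 52.6% of the Arg signal. It lay within 0.162% of tRX-Gly-NNN-930. The 3′ fragment of tRX-Arg-NNN-117, the most abundant 3′ row of all members, had 1109, 2433, 1508 and 1488. Its 4 values were exactly those of the 3′ fragment of tRNA-Arg-CCT-3, a tRNA row of its own isotype. For Lys (lysine) the 5′ fragment of tRX-Lys-NNN-183 belonged to the near-equal group of 23 rows, with 4323, 3686, 4050 and 5714. A 3′ row of the label, tRX-Lys-NNN-2, had values equal to those of tRNA-Lys-TTT-4, at 485.7, 576.2, 403.8 and 374.9. For His (histidine) the tRNA-like loci were far below the tRNA rows. Its tRNA rows summed to 136209, 173716, 140515 and 202961, while its 215 tRNA-like loci summed to 694, 603, 578 and 666, or 0.389% of the mean over the tRNA rows. The leading His row, tRX-His-NNN-1260 at neither end, had 135, 55.5, 89.2 and 88.6.

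Aliphatic labels and methionine were mostly led by single rows. The 5′ fragment of tRX-Ala-NNN-3 held 66.5% of the Ala (alanine) signal, with 13874, 15948, 12962 and 20987 normalized counts. Those values were nearly the same as those of tRX-Asp-NNN-36 and lay within 0.255% of tRNA-Gly-CCC-8. Further Ala rows tracked tRNAs of their own isotype: tRX-Ala-NNN-34, at 1261, 1375, 1049 and 2632, lay within 0.772% of tRNA-Ala-AGC-14. The leading rows of Leu (leucine) and Met (methionine), tRX-Leu-NNN-3 and tRX-Met-NNN-10 at the 5′ end, both belonged to the near-equal group of 23 rows and held 51.8% and 93.4% of their label. The label Ile (isoleucine) was led by fragments at neither end of tRX-Ile-NNN-4, with 921, 935, 1562 and 1480, and the row differed by 13.6% from the nearest tRNA row, tRNA-Ile-AAT-2. Both daughter fertility groups were above both bull fertility groups there. The 5′ fragment of tRX-Pro-NNN-5, leading Pro (proline), had 1454, 1735, 2335 and 1528, and its nearest tRNA row, tRNA-Pro-TGG-3, differed by 43.0%.

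The initiator methionine label, iMet, marks tRNAs that start translation. Its 4 loci summed to 972, 1879, 2145 and 824 normalized counts, the widest spread of any label. The sum was lower in high than in low bull fertility (log2 ratio -0.95) and higher in high than in low daughter fertility (1.38). Nearly all of it, 84.2%, was the 5′ fragment of tRX-iMet-NNN-3, at 843, 1579, 1865 and 617. That row lay within 1.98% of tRNA-iMet-CAT-3. The fold changes in the authors' deposited table were smaller than their SE, with -0.85 ± 0.89 (SE) for bull fertility (p = 0.338) and 0.51 ± 0.89 for daughter fertility (p = 0.563).

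Hydroxyl labels contributed mostly through Ser (serine), whose 5′ fragment of tRX-Ser-NNN-165 again belonged to the near-equal group of 23 rows. The Ser loci summed to 18083, 17252, 14751 and 17358 normalized counts. For Thr (threonine) the sums were 855, 885, 772 and 1026, and the leading row, the 5′ fragment of tRX-Thr-NNN-91, had 95.3, 129, 121 and 95.3. The equal values in high bull and low daughter fertility are those of a library that both groups share.

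Among aromatic labels, Trp (tryptophan) gave the most, from 1976 loci: 28152, 27267, 24311 and 28540 normalized counts. Its tRNA rows summed to 959, 1144, 1492 and 1395, so the tRNA-like loci gave 2170% as much on average. The leading Trp row, the 5′ fragment of tRX-Trp-NNN-924, was another of the 23 near-equal rows, with 4401, 3625, 4009 and 5729, while the nearest Trp tRNA row of that ending, tRNA-Trp-CCA-2, had 3.24, 2.64, 5.25 and 3.62. Tyr (tyrosine) loci summed to 3543, 3443, 3746 and 3131, and their leading row, tRX-Tyr-NNN-7414 at neither end, had 385, 696, 562 and 385. That row formed a pair with tRX-Und-NNN-7537 and lay within 0.680% of tRX-Gly-NNN-34942. Phe (phenylalanine) loci summed to 1333, 1490, 1231 and 1297, led by the 3′ fragment of tRX-Phe-NNN-2 with 104, 115, 104 and 92.8.

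High and low bull fertility were compared first. No member passed an adjusted p of 0.05 after Benjamini-Hochberg adjustment of the authors' p over all rows (0 of 19523 members with a p, smallest adjusted p 1), and 0% of all rows in the table did. At an unadjusted p under 0.05 there were 70 members (0.359%), beside 0.249% of all rows. Of these, 48 were higher with high bull fertility (0.246%, beside 0.169% of all rows) and 22 were lower (0.113%, beside 0.0800%). For 60 of the 70 the mean of the compared groups was under 10, and all 10 above that level were higher with high bull fertility. At that level the members' share, 0.898% of 1114, was below the 1.341% of all 3802 rows, the reverse of the order without a limit on level. By direction, 0.898% of members beside 0.605% of all rows were higher, and 0% beside 0.736% were lower. The median log2 fold change over all 19745 members with one was 0, as it was over all rows.

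The summed member values differed little between high and low bull fertility, with a log2 ratio of 0.063 that became -0.063 when near-equal rows were counted once. The sum over Cys, Gly, Glu and Val tRX rows had a log2 ratio of 0.061, and that over tRNA rows one of -0.46. By label, the log2 ratio was above 0 in 10 isotypes and below 0 in 9, from -0.95 for iMet to 0.33 for Gln. These are sums of group values and have no replicate error. The labels are not separate signals either, as the near-equal group of 23 rows was spread over 8 of them. In the authors' deposited table the 288 members with a mean from 100 to 1000 had a median log2 fold change of -0.23, and 255 of them were below 0. All 711 rows at that level had the same median, with 578 below 0. Near-equal rows make this count larger than the number of separate signals, since counting each group once left 148 rows, 119 of them below 0. Among the 81 rows of at least 1000, 60 were above 0, with a median of 0.03, or 16 of 25 when near-equal rows were counted once. None of these 369 rows had a p under 0.05, and their smallest was 0.0670.

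**Figure D3:**
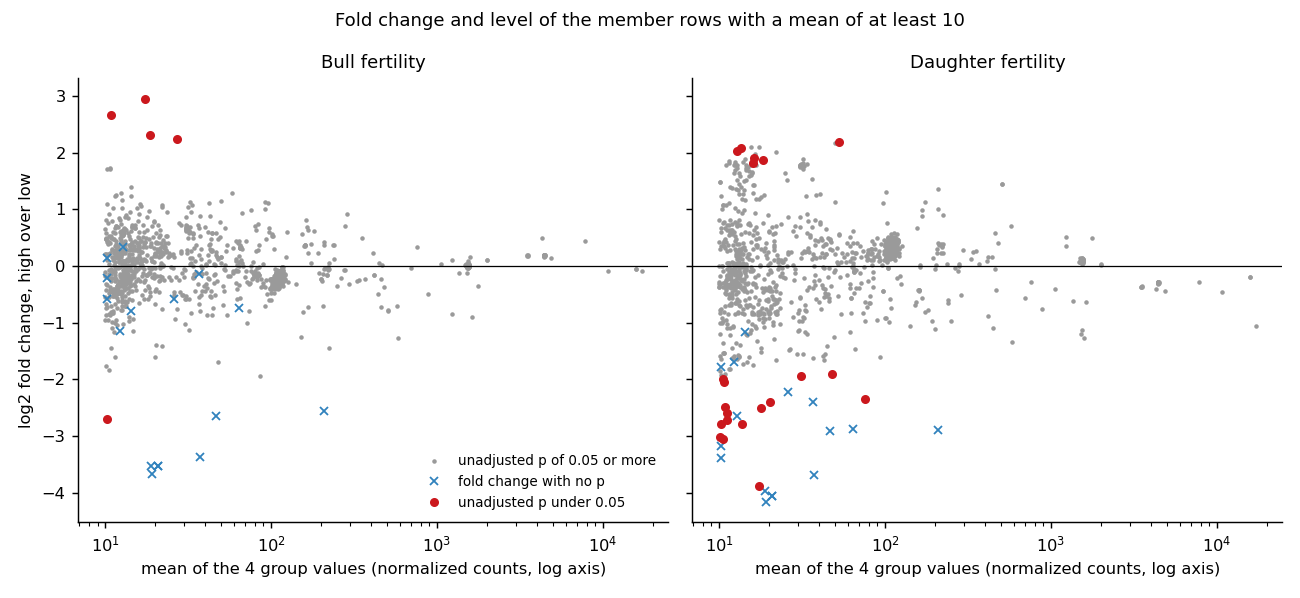
Log2 fold change of high over low fertility against the mean of the 4 group values (log axis) for the 1116 members with a mean of at least 10, bull fertility left and daughter fertility right. Red points have an unadjusted p under 0.05 (5 and 21 rows), and blue crosses mark rows with a fold change and no p. The red points lie at means below 100, while rows above 1000 lie from -0.90 to 0.50 for bull and from -1.27 to 0.51 for daughter fertility.

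Among members with a comparison mean of at least 10, those with the smallest p for bull fertility were low in reads. Below that level the smallest p was 0.00606. Fragments at neither end of tRX-Sup-NNN-3765 had 32.4 normalized counts in high bull fertility (20 reads in the library shown) and 2.68 in low bull fertility (3 reads), beside 31.5 in high and 3.17 in low daughter fertility. The authors' deposited table gives this row a log2 fold change of 2.95 ± 1.16 for bull fertility (p = 0.0111) and 2.11 ± 1.15 for daughter fertility (p = 0.0672). It was thus high in both high fertility groups, which share a library. The 5′ fragments of tRX-Trp-NNN-7544 had 24.0 in high bull fertility (24 reads), 2.11 in low bull (4 reads), 3.82 in high daughter and 1.11 in low daughter fertility. In the authors' deposited table its fold change was 2.78 ± 1.23 for bull fertility (p = 0.0238) and -1.27 ± 1.23 for daughter fertility (p = 0.303). The daughter fertility fold change thus had the opposite sign to the group values. The row tRX-Und-NNN-6535 differed from tRX-Trp-NNN-7544 by 1 read in the high bull group and was equal to it in the others. These 2 rows are therefore not separate observations. The 5′ fragments of tRX-Sup-NNN-1406, tRX-Trp-NNN-9324 and tRX-Und-NNN-8687 had 61.5, 27.4 and 33.99 in high against 4.23, 3.17 and 1.79 in low bull fertility. Their p was from 0.0258 to 0.0286 in the authors' deposited table. All group values of tRX-Und-NNN-8687 were exactly those of the 5′ fragment of tRX-Gly-NNN-31421, so it is not a signal separate from that row.

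Among rows lower with high bull fertility, no member with a comparison mean of at least 10 had a p under 0.05. The nearest was tRX-Tyr-NNN-2201 at neither end, with 131 normalized counts in high bull (181 reads), 357 in low bull (675 reads), 273 in high daughter and 131 in low daughter fertility. The high bull and low daughter values of this row were the same 181 reads of a library in both groups. The authors' deposited table gives tRX-Tyr-NNN-2201 a log2 fold change of -1.45 ± 0.79 for bull fertility (p = 0.0670). The 5′ fragment of tRX-Ala-NNN-1 had 234 in low bull fertility. It had 37.2, 37.2 and 36.1 in the high bull, high daughter and low daughter groups. The high bull and high daughter values were the same 23 reads of a library that both groups share. The low daughter value, 50 reads, came from a library also in the high bull group, so these values are not separate observations. The fold change of tRX-Ala-NNN-1 in the authors' deposited table was -1.95 ± 1.18 (p = 0.1001). For tRX-Trp-NNN-558 at the 3′ end, tRX-Ser-NNN-2 and tRX-Ser-NNN-5562 at the 5′ end and tRX-Arg-NNN-3420 at the 3′ end, p was from 0.0813 to 0.122.

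High and low daughter fertility gave more rows with a small p, almost all lower. Again no member passed an adjusted p of 0.05 by Benjamini-Hochberg adjustment of the authors' p (0 of 19523, smallest adjusted p 1), and 0% of all rows did. At an unadjusted p under 0.05 there were 302 members (1.55%), beside 1.33% of all rows. Of them, 276 were lower with high daughter fertility (1.41%, beside 1.18% of all rows) and 26 were higher (0.133%, beside 0.151%). The mean of the compared groups was under 10 for 280 of the 302, and 74 had a value of 0 in both groups. The low daughter fertility libraries were the deeper ones throughout, and the part of depth in the lower calls was not tested. Of the 22 with a comparison mean of at least 10, 15 were lower and 7 higher. The lower were 1.39% of members at that level, beside 2.35% of all rows, and the higher 0.649%, beside 0.903%. Together they were 2.04% of the 1079 members, below the 3.26% of all 3654 rows, again the reverse of the order without a limit.

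The summed member values were lower in high than in low daughter fertility, with a log2 ratio of -0.40, beside -0.31 for Cys, Gly, Glu and Val tRX rows and -0.17 for tRNA rows. By label, 15 isotypes were below 0 and 4 above, Pro, Tyr, Ile and iMet. The lowest was Ala with -0.71. The near-equal group of 23 rows was spread over 8 of the labels below 0, so the labels are not separate signals. The authors' fold changes are another measure than ratios of group values, and the 2 can differ for the same row. The 5′ fragment of tRX-Asp-NNN-36 had 12967 in high and 20985 in low daughter fertility, but a fold change of only -0.19. That of tRX-Gly-NNN-1610, not a member, had 1266 and 1568, but a fold change of 0.08. These fold changes did not point the same way at every level. In the authors' deposited table the 288 members with a mean from 100 to 1000 had a median log2 fold change of 0.29, and 247 of them were above 0, or 112 of 148 when near-equal rows were counted once. The Cys, Gly, Glu and Val tRX rows at that level were alike, with a median of 0.29 and 157 of 199 above 0. Of all 711 rows there, 459 were above 0, while the 210 tRNA rows had a median of -0.47 and 45 above 0. The fold changes of the 81 members of at least 1000 were split, 41 above and 40 below 0, with a median of 0.02. This split does not give the direction of their group values. Counting near-equal rows once gave 11 above and 14 below, with a median of -0.28. The members whose compared groups had a mean above 0 and under 10 had a median of -0.56. None of the 369 rows of at least 100 had a p under 0.05, and their smallest was 0.0629.

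None of the 10 most abundant rows had a p under 0.05. For the 5′ fragment of tRX-Asp-NNN-23 the authors' deposited table gives a log2 fold change of -1.06 ± 0.65 for daughter fertility (p = 0.104) and -0.09 ± 0.65 for bull fertility (p = 0.887). The rows tRX-Asp-NNN-36 and tRX-Ala-NNN-3, which had similar group values, had a fold change of only -0.19 ± 0.76 in the authors' deposited table (p = 0.799 for tRX-Asp-NNN-36). The fold change of the 23 near-equal rows was from -0.31 to -0.28 in that table. Their group values were higher in low than in high daughter fertility. The rows were grouped because these values were nearly equal, so the shared direction follows from the grouping. It is not separate evidence from each row.

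The smallest daughter fertility p of all members was that of the 3′ fragment of tRX-Trp-NNN-1. It had 7.64 normalized counts in high daughter (6 reads), 42.6 in low daughter (94 reads), 14.4 in high bull (20 reads) and 5.36 in low bull fertility (6 reads). Its log2 fold change in the authors' deposited table was -3.89 ± 1.14 for daughter fertility (p = 0.000646) and -0.25 ± 1.14 for bull fertility (p = 0.824). The low daughter value stood above the other 3 groups. The 3′ row of tRNA-Trp-CCA-1, of the same isotype, had a like profile, with 17.3, 8.04, 12.7 and 42.6 in the order high bull, low bull, high daughter and low daughter. The authors' deposited table gives that tRNA row a daughter fertility fold change of -3.74 ± 1.13 (p = 0.000941). The 5′ fragments of tRX-Lys-NNN-88 had 3.82 in high and 19.9 in low daughter fertility, on 3 and 18 reads, and a fold change of -3.06 ± 1.11 in the authors' deposited table (p = 0.00595). The nearest Lys tRNA row, tRNA-Lys-TTT-10, had 7.64 and 23.3 and a fold change of -2.41 ± 0.99 in the authors' deposited table (p = 0.0149). The row tRX-Lys-NNN-172 differed from tRX-Lys-NNN-88 by at most 1 read in each group. Likewise the 5′ fragments of tRX-Tyr-NNN-2646 and tRX-Phe-NNN-1821 had 27.2 and 27.6 in low daughter fertility and both 4.86 in high, under different labels. Fragments at neither end of tRX-Phe-NNN-2069 had 17.0 in high and 28.9 in low daughter fertility, with a fold change of -2.50 ± 0.99 in the authors' deposited table (p = 0.0113). The log2 ratio of these group values is only -0.76.

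Of the 26 members higher with high daughter fertility, 20 were fragments at neither end, an ending that made up 45.6% of the members with a p. Those of tRX-Trp-NNN-11350 had 17.0 normalized counts in high (13 reads) and 4.07 in low daughter fertility (9 reads), with 14.0 in high and 18.8 in low bull fertility. The log2 fold change in the authors' deposited table was 2.08 ± 0.94 (p = 0.0277). The rows tRX-Und-NNN-7807, tRX-Ser-NNN-1644 and tRX-Ser-NNN-2347 were alike, at 20.4, 19.1 and 15.7 in high and 5.89, 6.50 and 6.34 in low daughter fertility. In all 4 rows the low daughter group was the lowest of the 4 groups. The 3′ fragments of tRX-Lys-NNN-715 had 32.8 in high and 7.25 in low daughter fertility, beside 75.1 and 94.7 in the bull fertility groups, with a fold change of 2.18 ± 1.06 in the authors' deposited table (p = 0.0390). The 3′ fragments of tRX-Tyr-NNN-8588 had 17.8 in high and 3.62 in low daughter fertility, with a log2 fold change of 2.28 ± 1.10 in the authors' deposited table.

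**Figure D4:**
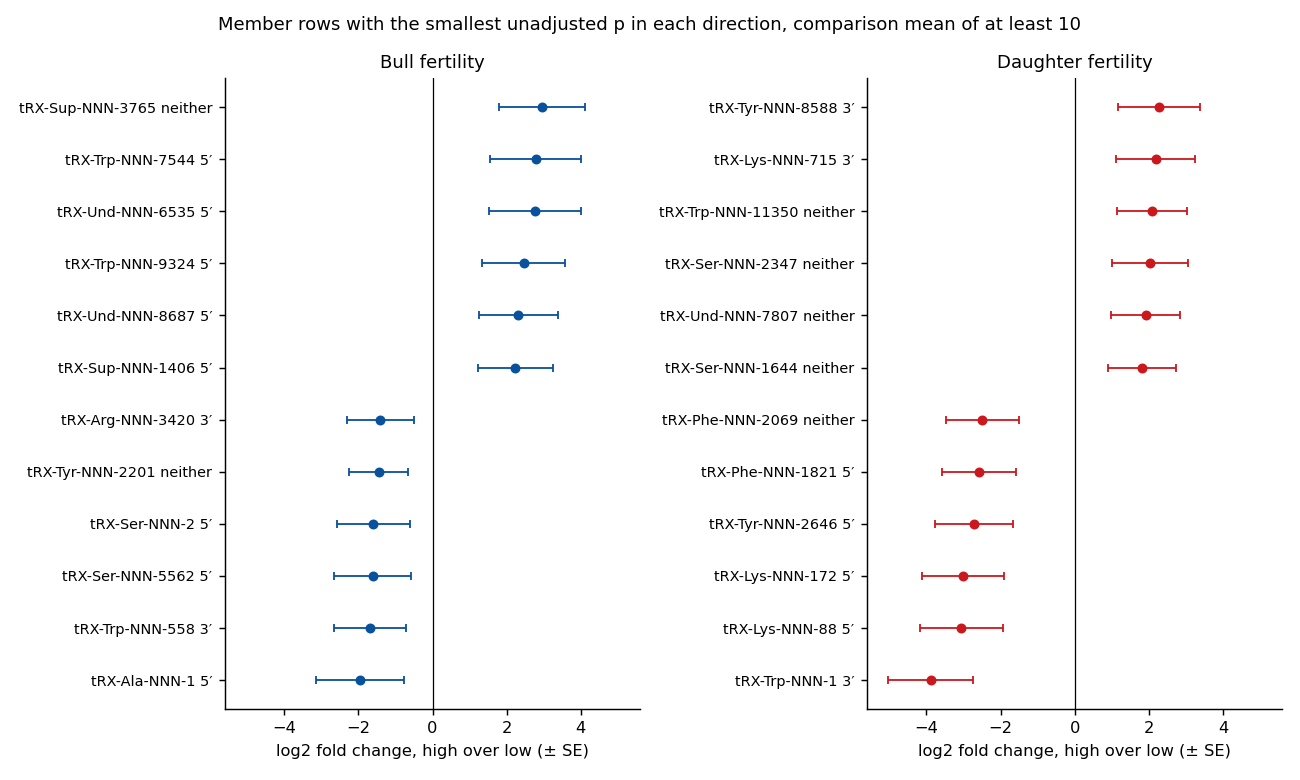
Log2 fold change of high over low fertility with its SE for the 6 members per direction with the smallest unadjusted p, among those with a mean of the compared groups of at least 10. The lower side of bull fertility runs from -1.95 to -1.41, and tRX-Trp-NNN-1 at the 3′ end has the largest change, -3.89 for daughter fertility.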

How the data were processed

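Small RNA libraries from 10 sperm samples were analysed through 3 tables. Per the file headers, the tsRNA table holds the authors' log2 fold changes, unadjusted p-values and 1 signal (normalized count) per group, and the miRNA tables hold the authors' mean normalized signal. The submitters' processing notes name Trimmomatic 0.39 and DESeq2 1.34.0 but give no roles. Aligner, genome build, annotation and the rule for reads matching several loci: not given in the sources used here. Coordinates are therefore left out.

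A planned count test could not be run, because the tables at hand have no value per sample. The authors' p-values were adjusted here by the Benjamini-Hochberg method across the table's 98760 tested rows, with 0.05 as the threshold. Each SE was derived from the authors' log2 fold change and p with a normal distribution. For rows with a mean of at least 100 its median was 0.733 (n = 368). SEs differed between comparisons by a median of 0.00343, as from a joint fit over all groups. Reads were recovered by dividing a value by the step of its library (tolerance 1e-04). Named rows were the 10 most abundant, the leading row of each isotype and ending, and up to 6 per direction and comparison with the smallest p at a comparison mean of at least 10. Members, lists and rules were chosen with earlier results of these data known. The routines were tested on simulated data. Python 3.11.15, numpy 2.4.6, pandas 2.3.3, scipy 1.17.1 and matplotlib 3.10.9 were used.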

Additional observations from a re-analysis of the deposited data

How the results depend on the processing

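The counts of members with a small p depended on the level of the rows. For bull fertility the 70 members with an unadjusted p under 0.05 became 4 at p under 0.01, 10 at a comparison mean of at least 10, 16 with both group values above 0 and 57 with identical rows counted once. For daughter fertility the 302 became 41, 22, 62 and 194 in the same order. No member passed an adjusted p of 0.05 or 0.1, and adjusting only over rows with a mean of at least 10 gave a smallest Benjamini-Hochberg adjusted p of 1.00 and 0.985. The share of members with a fold change above 0 was 43.6% for bull fertility, and 45.5% by the sign of the group values. For daughter fertility it was 37.8%, against 33.6% by the group values and 55.2% at a mean of at least 10. The log2 ratio of the sums was 0.063 for bull fertility and -0.063 with near-equal rows counted once, and -0.41 to -0.34 under all alternatives for daughter fertility. For the 48 named rows, all 19 fold changes with a p under 0.05 kept their sign when replaced by the log2 ratio of group values with a pseudocount of 1 or 10, but 4 and 14 moved by more than their SE and 13 and 18 became smaller. For tRX-Trp-NNN-1 at the 3′ end, -3.89 became -2.33 and -1.57, and for tRX-Phe-NNN-2069 at neither end, -2.50 became -0.73 and -0.52. Among the other fold changes, 6 and 8 moved by more than their SE, and some changed sign. For tRX-Trp-NNN-7544 the daughter fertility fold change of -1.27 became 1.19 and 0.32. For tRX-Trp-NNN-1 at the 3′ end the bull fertility fold change of -0.25 became 1.28 and 0.67. The alternatives with near-equal rows, both values above 0 and the 1% tolerance were chosen after seeing the data. No replicate could be left out. No paired analysis was possible because the tables used here hold 1 value per group. Many group values rest on few reads: the median was 2 or 3 reads per group, and 2856 of the 8232 low daughter fertility values were a single read.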

Other observations

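Antisense rows of the same loci were not members. They summed to 6854 normalized counts in high bull, 5753 in low bull, 6072 in high daughter and 6737 in low daughter fertility, or 2.03%, 1.78%, 2.00% and 1.68% of the member sums. Of the 10449 antisense rows, 74 had a mean of at least 10 and 5 of at least 100. The highest was at tRX-Trp-NNN-3556, with 301, 192, 209 and 201, where all sense rows were 0. At the loci of the 81 most abundant members, 40 had an antisense value, and the largest mean was 28.8.

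A fold change stood without a p for 222 members, 16 of them with a mean of at least 10, and in the authors' deposited table all 16 were lower with high daughter fertility and 14 with high bull fertility. The most abundant, the 3′ fragment of tRX-Trp-NNN-990, had group values of 197, 254, 193 and 193 normalized counts, with log2 fold changes of -2.55 and -2.89 in the authors' deposited table. Its group values were close in all 4 groups, unlike its fold changes. The 3′ fragments of tRX-Tyr-NNN-5458 and tRX-Und-NNN-8727 had identical values of 22.7, 31.7, 17.8 and 11.6. These rows were chosen after their values were seen, and what lies behind the missing p was not tested.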
